A study of Mus musculus with 78 samples.

Results

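The genes described are those of the cytosolic ribosomal proteins, in mouse cartilage grown in culture from induced pluripotent stem cells. They were chosen by name from the table of mRNA counts: every row named Rpl or Rps with a number, Rplp0 to Rplp2 or Rpsa, without the Rps6k kinases, and with a mean of at least 1 CPM (counts scaled to the same library total) over the libraries used. Of 52459 named genes 92 had such a name and 81 reached that level, 48 of the large subunit and 32 of the small subunit. The remaining one, Rps19bp1, is named for a protein that binds RPS19 and is itself no ribosomal protein, but the naming rule takes it in. It averaged 9.46 CPM. For this choice CPM rest on library totals, and CPM of single libraries and groups below are also scaled by TMM, the trimmed mean of M values of edgeR. All 81 passed the low-count filter, which left 18857 genes for testing. The 11 names left out were Rpl37rt at 0.78 CPM, Rps29 at 0.776 CPM, Rpl23a at 0.394 CPM, Rps3a3 at 0.1022 CPM, and Rpl3l, Rps27rt, Rpl39l, Rpl6l, Rpl10l, Rps12l1 and Rps3a2, each at 0.0633 CPM or less. Just inside the limit lay Rpl24, a large-subunit protein, at 1.195 CPM.

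The tissue received either of 2 cytokines known from inflamed joints, or none (control). Interleukin-1 beta, written IL-1beta, was given at 1 ng/mL, and TNF-alpha, the tumor necrosis factor, at 20 ng/mL. IL-1beta and TNF-alpha libraries were taken at 4, 12, 24 and 72 h, and controls at 0, 4, 12, 24 and 72 h, with 3 libraries (replicates a, b and c) in each of the 13 groups. All groups come from the same kind of tissue-engineered cartilage, whose cells are derived from stem cells and stand in for chondrocytes of a joint. Total RNA was depleted of ribosomal RNA before sequencing.

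Each ribosome has a large and a small subunit, built from ribosomal RNA and one copy of most ribosomal proteins. The mRNAs of these proteins are abundant in dividing cells, and most start with a C followed by a run of pyrimidines, the terminal oligopyrimidine motif, through which the mTOR pathway and the RNA-binding protein Larp1 set their translation and stability. Some ribosomal proteins have other known roles. RPL5 and RPL11 bind the ubiquitin ligase MDM2 and so stabilise p53, RPS27L is encoded by a p53 target gene in human and mouse cells, and RPSA is also known as the laminin receptor precursor. In cartilage, ribosome supply is studied because chondrocytes secrete large amounts of matrix protein.

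Promoters of the members are in RefSeq's table for GRCm38.p6 for 62 of the 81 genes. Windows from 40 bases before to 15 bases after the annotated start are printed for the members on which the results below turn. The pyrimidine motif, where a gene has it, lies at the start. Capitals mark 3 motifs: C followed by at least 5 bases that are C or T, CCGGAAG (a core of the ETS family of factors) and AAGATGGC (the core bound by YY1), the last 2 on either strand. The pyrimidine motif is marked only within 20 bases of the annotated start. Runs or parts of runs farther off, as in Rps7 and Rps25, stay in lower case. Where 2 motifs overlap, the capitals run on. Among the members that gained most in control tissue over time were Rps25, Rps7 and Rpl41, among those highest at 0 h Rps16 and Rpl38, and among those that changed with the cytokines Rpsa, Rps23 and Rpl4.
Rps25, chr9:44407674-44407728, plus strand: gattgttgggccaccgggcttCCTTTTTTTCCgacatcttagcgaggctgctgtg
Rps7, chr12:28635939-28635993, minus strand: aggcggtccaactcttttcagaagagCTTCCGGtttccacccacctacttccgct
Rpl41, chr10:128549154-128549208, minus strand: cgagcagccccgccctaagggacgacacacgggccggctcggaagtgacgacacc
Rps16, chr7:28350649-28350703, plus strand: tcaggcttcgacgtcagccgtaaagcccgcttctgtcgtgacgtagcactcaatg
Rpl38, chr11:114668540-114668594, plus strand: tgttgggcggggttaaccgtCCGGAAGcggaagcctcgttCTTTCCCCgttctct
Rpsa, chr9:120127726-120127780, plus strand: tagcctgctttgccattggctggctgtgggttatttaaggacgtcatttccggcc
Rps23, chr13:90923082-90923136, plus strand: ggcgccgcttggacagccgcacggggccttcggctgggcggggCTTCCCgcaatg
Rpl4, chr9:64173347-64173401, plus strand: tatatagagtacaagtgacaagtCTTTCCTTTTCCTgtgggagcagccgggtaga

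The pyrimidine motif within 20 bases of the annotated start was present in 41 of the 62 matched members, 66.1%, against 35.4% of all 27025 promoters. CCGGAAG, in the window from 250 bases before to 50 after the start, was present in 25, 40.3% against 9.93%. AAGATGGC was present in 6, 9.68% against 3.19%. Of the 39 matched members that rose in control tissue between 12 and 72 h 64.1% held the pyrimidine motif, against 69.6% of the other 23. For CCGGAAG the shares were 46.2% and 30.4%, and for AAGATGGC 12.8% and 4.35%. A match describes letters and no binding, and these shares carry no test.

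Of the 39 mRNA libraries 38 were used, with 11163263 to 68655350 counts on named genes. The column of control 0 h replicate b was left out because its values are misaligned in the table (220180 counts, and a correlation of 0.182 with replicate a against 0.99 between the other replicates), so control at 0 h has 2 libraries. The chondrocyte markers present in the table were 9 of 10, all at 1 CPM or more, and their summed level ranged from 16000 to 134000 CPM. Pluripotent stem cell markers summed to 0.401 CPM or less, muscle markers to 0.972 CPM or less, endothelial markers to 1.94 CPM or less and leukocyte markers to 15.3 to 77 CPM, while fibroblast markers summed to 6440 to 22300 CPM. A set of 13 genes, none of them a member, was at least 2-fold higher in each of the 30 other libraries than in any of the 8 libraries of a set made up of IL-1beta at 4 h and the controls at 4 and 0 h. In comparisons across that parting, which are TNF-alpha against control and IL-1beta against TNF-alpha at 4 h, control at 12 h against 4 h and control at 72 h against 0 h, a difference between library sets cannot be told apart from the groups. The test of the TNF-alpha effect by time uses the 4 h effect and carries the same limit. So do changes from 4 to 12 h in the control and IL-1beta courses of shares.

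Levels per length spanned 626-fold over the members, although the proteins are needed in near equal amounts. Per kilobase of listed gene length they ran from 0.989 CPM per kilobase for Rpl28 to 619 CPM per kilobase for Rpl8, with a median of 17.1. The listed length is not the length of 1 mRNA. For Rps24, at 6256 bases, it is near the whole gene (chr14:24490678-24496960), while Rplp1 is listed at 499 bases, well below its gene (chr9:61913283-61914510). Levels per length, also by number of pseudogene rows and of the paralogs below, carry this distortion, and its part was not tested. The level went with the number of rows named as pseudogenes of the gene. The table lists 276 rows whose name fits the rule with a pseudogene suffix added, some of them for names that are not members, such as Rpl23a. Copies listed under other kinds of name, if any, were not counted. The 23 members with no such row had a median of 48.5 CPM per kilobase. The median was 19.2 for the 32 members with 1 to 3 rows and 7.42 for the 26 members with 4 or more rows. The pseudogene rows themselves took 0.002164% to 0.004807% of counts. Levels of members with copies, such as Rpsa with 9 pseudogene rows and 3.40 CPM per kilobase, are therefore uncertain, since reads shared with a copy may have been lost or split in the authors' counting. How the counting treated such reads, and whether it used strand, is not known from the sources at hand.

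Paralog pairs differed in level per length. Rpl22 was at 78.5 and its paralog Rpl22l1 at 6.45 CPM per kilobase, Rpl7 at 59.3 and Rpl7l1 at 37.8. Rps27l, the p53 target, was at 48.5 CPM per kilobase, above Rps27 at 3.92, which has a pseudogene row where Rps27l has none. Rpl39l and Rpl3l, known as the copies used in testis and in muscle, stayed below the level needed for a member. By CPM alone the most abundant members were Rps3 at 744.1, Rpl4 at 728.0, the stalk protein Rplp0 at 551.9 and Rpl8 at 535.3 CPM.

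All members together took 0.4909% to 1.238% of the counts of a library. With IL-1beta the share was 0.598% ± 0.112 at 4 h, 0.625% ± 0.144 at 12 h, 0.841% ± 0.0493 at 24 h and 0.948% ± 0.0192 at 72 h (SD, n = 3 each). With TNF-alpha it was 0.575% ± 0.0389, 0.65% ± 0.157, 0.901% ± 0.0768 and 1.07% ± 0.143 at these times (SD, n = 3 each). In control tissue it was 0.818% ± 0.165 at 0 h (SD, n = 2), and 0.651% ± 0.0579 at 4 h, 0.552% ± 0.0615 at 12 h, 0.768% ± 0.105 at 24 h and 0.893% ± 0.0652 at 72 h (SD, n = 3 each). All 3 courses had their highest mean at 72 h, and the control course had its lowest at 12 h.

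**Figure D1:**
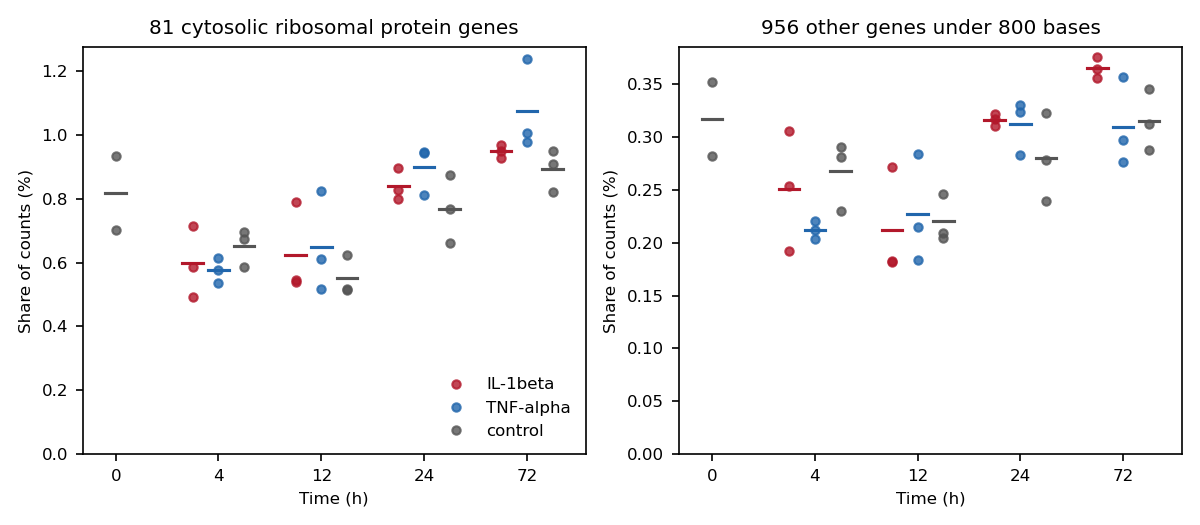
Share of a library's counts in percent (vertical axes, from 0) on the 81 members (left) and on the 956 other genes of listed length under 800 bases (right), by time in hours (horizontal axes, evenly spaced times), with a point for each library and a short bar at the mean of each IL-1beta, TNF-alpha and control group. On the left the control libraries are lowest at 12 h, with a mean of 0.552%, and TNF-alpha at 72 h has the highest mean, 1.07%; on the right the control mean is 0.22% at 12 h.

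Other short genes moved with this share. The 956 other protein-coding genes of listed length under 800 bases took a mean of 0.317%, 0.267%, 0.22%, 0.28% and 0.315% of counts in control tissue at 0, 4, 12, 24 and 72 h. From 12 to 72 h in control tissue the members' share was 1.62 times as large at the end, that of the other short genes 1.43 times and that of the mitochondrial ribosomal proteins 1.34 times. In 11 of the 13 groups the library with the highest member share also had the highest share of other short genes. With TNF-alpha at 72 h the ratio to control was 1.2 for the members and 0.983 for the other short genes, and with IL-1beta at 72 h 1.06 and 1.16. The part of short-gene yield in the results below was not tested, but each count was also computed with that share as a covariate. In these bulk samples fewer cells of a type and less RNA per cell cannot be told apart.

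The largest change of the ribosomal protein genes was in untreated tissue between 12 and 72 h. Of the 81 members 50 rose and none fell, 61.7% against a background of 18.7% of all tested genes called higher (37.1% called in either direction; edgeR's quasi-likelihood test, adjusted p under 0.05). The median member was 0.46 higher on the log2 scale, against 0.00114 over all genes, and 16 members rose more than 2-fold. By subunit 24 of 32 small-subunit and 25 of 48 large-subunit members rose, with median log2 fold changes of 0.69 and 0.40, and Rps19bp1 rose as well. Over the same comparison summed chondrocyte markers were 79500 to 99300 CPM at 72 h against 106000 to 123000 CPM at 12 h, fibroblast markers 11000 to 13000 against 15600 to 18600 CPM and leukocyte markers 26.2 to 30.4 against 20.1 to 22.6 CPM, and their part in the result was not tested.

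Rps25, a small-subunit protein used by some viral and cellular internal ribosome entry sites, had the largest change. It had 57.22 and 81.47 CPM in control tissue at 0 h, 56.79, 50.91 and 35.85 CPM at 4 h, 30.55, 28.15 and 41.45 CPM at 12 h, 92.89, 66.96 and 109.6 CPM at 24 h and 113.7, 118.2 and 91 CPM at 72 h. All libraries at 72 h lay above all at 12 h, and so did all at 24 h. The log2 fold change was 1.69 ± 0.278 (SE) for 72 h against 12 h (adjusted p = 9.86e-06, edgeR) and 1.43 ± 0.278 for 24 h against 12 h (adjusted p = 0.000312, edgeR).

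Rps7, a small-subunit protein that can bind MDM2, followed the same course. Its values were 62.93 and 81.75 CPM at 0 h, 60.52, 57.68 and 49.36 CPM at 4 h, 42.55, 45.21 and 54.44 CPM at 12 h, 115.4, 92.49 and 145.6 CPM at 24 h and 146.9, 156.1 and 141.1 CPM at 72 h. The 72 h libraries lay above all others but one, a 24 h library. The log2 fold change from 12 to 72 h was 1.65 ± 0.226 (SE; adjusted p = 5.21e-07, edgeR). Rpl41, which encodes the shortest large-subunit protein, had 187.4, 229 and 186 CPM at 72 h against 60, 61.67 and 86.32 CPM at 12 h, without overlap. Its log2 fold change was 1.54 ± 0.259 (adjusted p = 1.5e-05, edgeR).

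Among the other members that rose more than 2-fold between 12 and 72 h were Rpl39 at the exit of the peptide tunnel (log2 fold change 1.42 ± 0.298), Rpl38 (1.17 ± 0.258), Rps16 (1.14 ± 0.261) and Rps27l (1.01 ± 0.23). Rps19, the gene most often mutated in Diamond-Blackfan anaemia, rose by 0.99 ± 0.209. Rpl22 rose by 0.75 ± 0.116 and its paralog Rpl22l1 by 0.61 ± 0.147. Rpl36a, with a log2 fold change of 1.00 ± 0.195, rose, while its near-copy Rpl36al at 0.15 ± 0.241 did not pass the test, and the difference between the copies was not tested.

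Not all members took part. Rplp0, often used as a reference gene in quantitative PCR, had a log2 fold change of 0.12 ± 0.107 from 12 to 72 h (adjusted p = 0.407, edgeR), Rpsa one of 0.21, and the p53-linked Rpl11 one of 0.07 ± 0.145. The estimate was below 0 for 5 members, among them Rpl10a at -0.19, Rpl28 at -0.39, Rps6 at -0.17 and Rpl5 at -0.06, and none of the 5 passed the test. They were named after their values were seen. Of the 41 members at or above the median level of 39.3 CPM 34 rose, and of the 40 below it 16 rose.

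**Figure D2:**
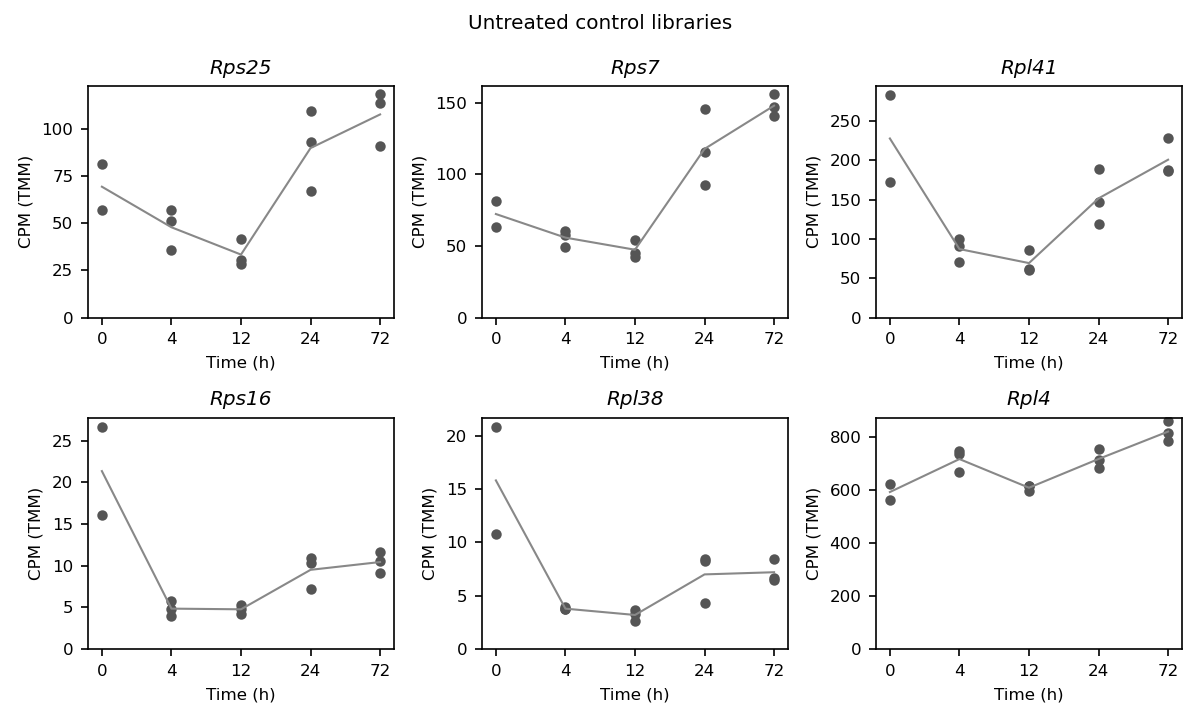
CPM of Rps25, Rps7, Rpl41, Rps16, Rpl38 and Rpl4 (vertical axes, from 0) in the untreated libraries at 0, 4, 12, 24 and 72 h (horizontal axes, evenly spaced times), with a point for each library and a line through the group means. Rps25 and Rps7 are highest at 24 and 72 h, Rps16 and Rpl38 are highest in the 2 libraries at 0 h, and Rpl4 spans 563.7 to 860.4 CPM.

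At 24 h the rise over 12 h was already present for 29 members with none lower, 35.8% against a background of 10.2% called higher (21.7% in either direction). The median log2 fold change was 0.25, against 0.0114 over all genes, and 6 members rose more than 2-fold. The 12 h controls serve both comparisons, so they are not independent. Of the 29 members 28 were among the 50 of the 72 h comparison, 96.6% of the shorter and 56% of the longer list. Without control 24 h replicate c 15 members rose between 12 and 24 h, and without control 12 h replicate b 19. For 72 h against 12 h, leaving out 1 library gave 41 to 59 members, and 39 of the 50 were called in every such fit. With the share of other short genes as a covariate 25 members were called for 72 h against 12 h, 22 of them higher, and the median log2 fold change was 0.09. Of the members named above Rpl38, at 0.655, Rps27l, at 0.2708, and Rpl22l1, at 0.2472, then lost the call.

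Between 0 and 4 h without cytokine the change went the other way. At 4 h 32 members were lower and 1 higher than at 0 h, and 39.5% lower compares with a background of 10.2% called lower (20.4% in either direction). The median log2 fold change was -0.37, against -0.0125 over all genes, and 18 of 48 large-subunit and 14 of 32 small-subunit members were lower.

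Rps16, a small-subunit protein near the decoding site, fell most. It had 4.857, 5.721 and 3.987 CPM at 4 h against 16.06 and 26.66 CPM at 0 h. The groups did not overlap, and the log2 fold change was -2.14 ± 0.255 (SE; adjusted p = 2.73e-07, edgeR). Rpl38, a large-subunit protein required for patterning of the mouse axial skeleton, had 3.732, 3.717 and 3.925 CPM at 4 h against 10.83 and 20.81 CPM at 0 h, a log2 fold change of -2.05 ± 0.243 (adjusted p = 2.37e-07, edgeR). Rpl41 fell to 99.75, 91.17 and 70.56 CPM at 4 h, against 172.2 and 283.4 CPM at 0 h, by a log2 fold change of -1.38 ± 0.276. It was 1 of 6 members below -1.

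Rpl4, a core large-subunit protein, was the member that rose between 0 and 4 h. It had 736.4, 749.4 and 668.6 CPM at 4 h against 563.7 and 623.4 CPM at 0 h, a log2 fold change of 0.28 ± 0.0819 (adjusted p = 0.0147, edgeR). All libraries at 4 h lay above those at 0 h. Its call was lost without control 0 h replicate a, at 0.2051, and without control 4 h replicate b, at 0.2526.

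The number of members that fell rests on control 0 h replicate c, which had the higher level of Rps16, Rpl38 and Rpl41. Without it 5 members were called, 4 of them lower: Rps16 at -1.73, Rpl38 at -1.51, Rpl12 at -0.58 and Rpl10a at -0.45. Without control 4 h replicate c 21 were called. Those 4 members were the ones called in every fit that left out 1 library. Of the 32 members that fell by 4 h 20 were among the 50 that rose from 12 to 72 h, 62.5% and 40% of these lists.

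At 72 h 7 members were higher and 16 lower than at 0 h in control tissue, 8.64% and 19.8%, against 18% of all genes called higher, 19.6% lower and 37.6% in either direction, with a median log2 fold change of -0.12, so 28.4% of members were called in either direction, fewer than of all genes. With the short-gene covariate 42 were called, 17 of them higher. On the log2 scale Rps7 was at 1.04, Rpl38 at -1.13 and Rps16 at -1.02. Without control 0 h replicate c 13 were called, and the calls of Rpl38, at -0.59, and Rps16, at -0.61, were lost. Between 4 and 12 h Rpl4 and Rpl27 fell, at -0.24 and -0.51, and no member rose, against 4.18% of all genes called lower and 7.18% in either direction. Rpl4 lost the call without control 12 h replicate a, b or c or control 4 h replicate a or b, at -0.256 to -0.2139, and Rpl27 without replicate a or b of either group, at -0.5021 to -0.4011. Both also lost it with library totals and with the short-gene covariate, at -0.1318 for Rpl4 and -0.2519 for Rpl27. These 2 comparisons were added after the data were seen.

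Against the untreated tissue of the same time, the cytokines were followed by 2 to 12 called ribosomal protein genes at each time, and all but 1 of the calls were upward. Both the counts and this direction depend on the fit. Without the low-count filter 20, 29, 39 and 20 members were called with TNF-alpha at 4, 12, 24 and 72 h, and at 4 h only 2 of these were higher. With the compared libraries alone 24 were called with IL-1beta at 72 h, and with the share of other short genes as a covariate 15, of which 1 was higher. With IL-1beta 12 members rose at 4 h, 4 at 12 h, 2 at 24 h and 5 at 72 h, where 1 fell (background of all genes called lower 19.7%). In percent these are 14.8, 4.94, 2.47 and 6.17 called higher, at or below the background of 15.5%, 14.5%, 17% and 19.3% of all genes called higher (32.7%, 29.6%, 32.6% and 38.9% in either direction). With TNF-alpha 3, 8, 4 and 12 members rose at 4, 12, 24 and 72 h and none fell, or 3.7%, 9.88%, 4.94% and 14.8% against backgrounds of 10.9%, 14.6%, 13.2% and 17.8% (21.5%, 28.4%, 25% and 36% in either direction).

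The members shifted slightly as a group. The median log2 fold change with IL-1beta was 0.00086, 0.16, 0.15 and 0.13 at 4, 12, 24 and 72 h, against -0.0333, -0.0158, -0.00629 and 0.0034 over all genes. With TNF-alpha it was -0.11, 0.20, 0.24 and 0.16, against -0.0243, -0.026, -0.0184 and -0.00801. The estimate was above 0 for 41, 70, 72 and 69 members with IL-1beta and for 27, 78, 75 and 72 members with TNF-alpha. The same controls serve both cytokines at each time, and members of 1 library rise and fall together, so these counts are not counts of independent events.

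**Figure D3:**
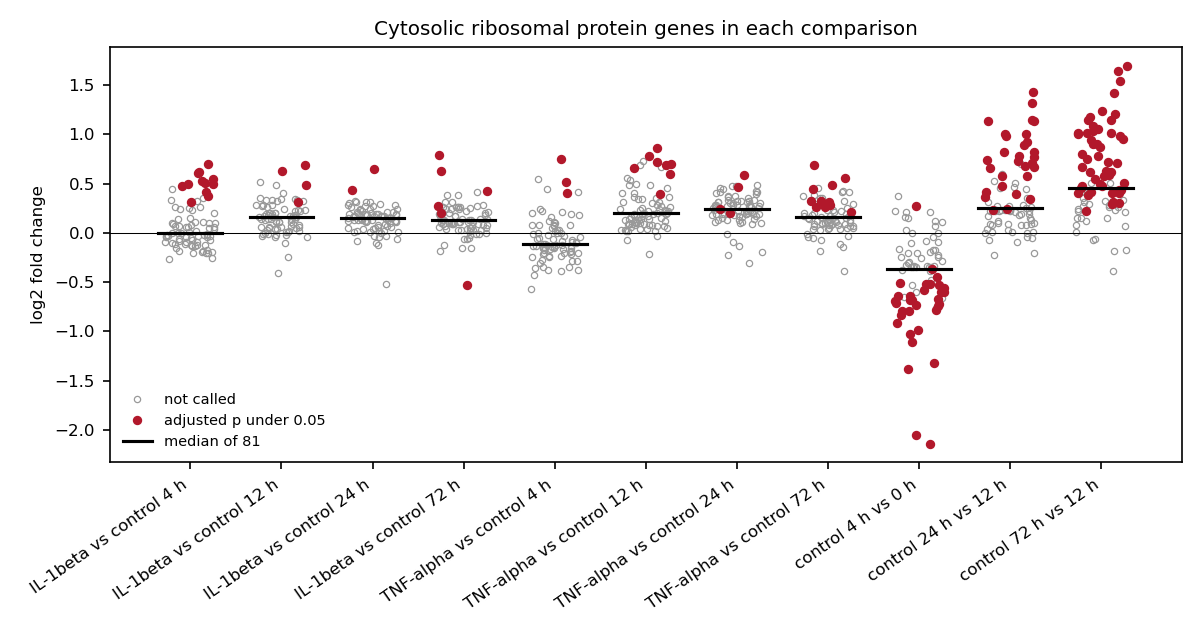
Log2 fold change (vertical axis) of each of the 81 members (points, spread sideways at random) in the 8 cytokine comparisons and 3 control comparisons, with members of adjusted p under 0.05 filled and a black bar at the median. The medians of control at 72 h against 12 h and of control at 4 h against 0 h, 0.46 and -0.37, lie farther from 0 than those of the cytokine comparisons, which lie between -0.11 and 0.24.

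Rpsa was the one member called in all 8 cytokine comparisons. It is part of the small subunit and was first known as a laminin receptor. With IL-1beta it had 11.58, 13.59 and 13.32 CPM at 4 h, 14.05, 10.62 and 10.44 CPM at 12 h, 10.84, 12.08 and 11.67 CPM at 24 h and 12.41, 11.74 and 10.59 CPM at 72 h. With TNF-alpha it had 11.31, 11.88 and 13.14 CPM at 4 h, 10.37, 11.33 and 11.09 CPM at 12 h, 10.87, 12.48 and 11.87 CPM at 24 h and 13.2, 10.98 and 11.71 CPM at 72 h. Control tissue had 8.297, 9.219 and 7.974 CPM at 4 h, 8.079, 8.138 and 8.657 CPM at 12 h, 8.435, 8.581 and 8.577 CPM at 24 h and 9.684, 9.501 and 9.533 CPM at 72 h. At no time did a cytokine library overlap the controls of that time. The 0 h controls, at 10.41 and 11.49 CPM, lay within the range of the cytokine libraries. In control tissue Rpsa was called lower at 4 h than at 0 h, at -0.3671, and the estimate was -0.2921 without control 0 h replicate c. That call was lost without control 4 h replicate a, at -0.3391, or c, at -0.3119.

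The log2 fold change of Rpsa with IL-1beta was 0.60 ± 0.0944 at 4 h (SE; adjusted p = 4.55e-06, edgeR), 0.49 ± 0.106 at 12 h, 0.43 ± 0.0987 at 24 h and 0.27 ± 0.0995 at 72 h (adjusted p = 0.0293, edgeR). With TNF-alpha it was 0.51 ± 0.0995 at 4 h (adjusted p = 0.000215, edgeR), 0.40 ± 0.104 at 12 h, 0.46 ± 0.0986 at 24 h and 0.32 ± 0.0972 at 72 h (adjusted p = 0.00975, edgeR). Calls up to 24 h were made in every fit that left out 1 library. At 72 h they were not: for IL-1beta each of the 5 fits that left out replicate a, replicate b or a control lost the call, at 0.2212 to 0.278, and for TNF-alpha the fit without replicate a lost it, at 0.2425. Whether the IL-1beta effect differed between times did not pass the test (adjusted p = 0.221, edgeR), nor did it for TNF-alpha (adjusted p = 0.674, edgeR). Adding the pseudogene rows to Rpsa gave 0.2026 with IL-1beta and 0.2344 with TNF-alpha at 72 h, without a call, and the short-gene covariate gave 0.1973 with IL-1beta.

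Rps23, a protein at the decoding centre that keeps translation accurate, was called in 5 of the 8 comparisons. At 4 h it had 5.391, 5.011 and 4.545 CPM with IL-1beta and 7.171, 4.943 and 5.288 CPM with TNF-alpha, against 3.419, 3.498 and 3.493 CPM in controls. Log2 fold changes were 0.53 ± 0.164 (adjusted p = 0.0121, edgeR) and 0.75 ± 0.173 (adjusted p = 0.00161, edgeR). At 12 h it had 6.216, 3.81 and 3.407 CPM with IL-1beta and 4.914, 4.182 and 6.329 CPM with TNF-alpha, against 2.725, 2.894 and 2.926 CPM in controls, without overlap. The log2 fold change was 0.63 ± 0.199 with IL-1beta, lost without IL-1beta 12 h replicate a at 0.351 or control 12 h replicate a at 0.5941, and 0.86 ± 0.188 with TNF-alpha (adjusted p = 0.000556, edgeR), kept in every fit that left out 1 library. At 72 h IL-1beta gave 7.588, 7.534 and 6.259 CPM against 5.037, 5.221 and 5.695 CPM, at 0.42 ± 0.164 (adjusted p = 0.0394, edgeR). That call was lost in 5 of the fits that left out 1 library, at 0.3752 to 0.4481. It was also lost with all 39 libraries at 0.42, with pseudogene rows added at 0.4006 and with the short-gene covariate at 0.315.

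Rps27l, the p53 target, was called in 5 comparisons as well. At 24 h it had 60.79, 58.08 and 52.05 CPM with IL-1beta and 47.88, 56.64 and 58.71 CPM with TNF-alpha, against 36.68, 29.48 and 42.78 CPM in controls, log2 fold changes of 0.65 ± 0.214 (adjusted p = 0.0181, edgeR) and 0.58 ± 0.215 (adjusted p = 0.0423, edgeR). At 72 h TNF-alpha gave 78.42, 64.81 and 57.37 CPM and IL-1beta 49.74, 48.9 and 49.47 CPM, against 40.98, 43.37 and 39.93 CPM in controls. TNF-alpha passed the test at 0.69 ± 0.212 (adjusted p = 0.01, edgeR) and IL-1beta did not, at 0.25 ± 0.215 (adjusted p = 0.388, edgeR). The 24 h call with IL-1beta was lost without its replicate a, at 0.5991, or control 24 h replicate b, at 0.5188, and that with TNF-alpha without its replicate b or c or control replicate a or b, at 0.4544 to 0.5913. The 72 h call was lost without TNF-alpha 72 h replicate a, at 0.5614.

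At 12 h 1 library decided the Rps27l values of each cytokine. IL-1beta gave 49.64, 25.79 and 25.15 CPM and TNF-alpha 26.79, 23 and 49.18 CPM, against 18.6, 19.71 and 23.41 CPM in controls. The log2 fold change of 0.69 ± 0.238 with IL-1beta was 0.316 without replicate a, and that of 0.69 ± 0.233 with TNF-alpha was 0.2826 without replicate c, both then not called. The TNF-alpha libraries overlapped the controls, and both calls were also lost without control 12 h replicate a or b, at 0.6198 to 0.6759. Of other p53 genes, Mdm2, the p53 ubiquitin ligase, was with TNF-alpha at 0.43, 0.75, 0.79 and 1.40 on the log2 scale at 4, 12, 24 and 72 h and with IL-1beta at 0.33, 1.09, 0.31 and -0.25. Cdkn1a, the cell cycle inhibitor p21, was at 0.31, 0.32, 0.49 and 0.66 with TNF-alpha and 0.08, 0.79, 0.43 and -0.20 with IL-1beta. Trp53 itself was higher in all 8 comparisons, at 0.38 to 0.87. A link of Mdm2, Cdkn1a or Trp53 to the Rps27l values was not tested.

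**Figure D4:**
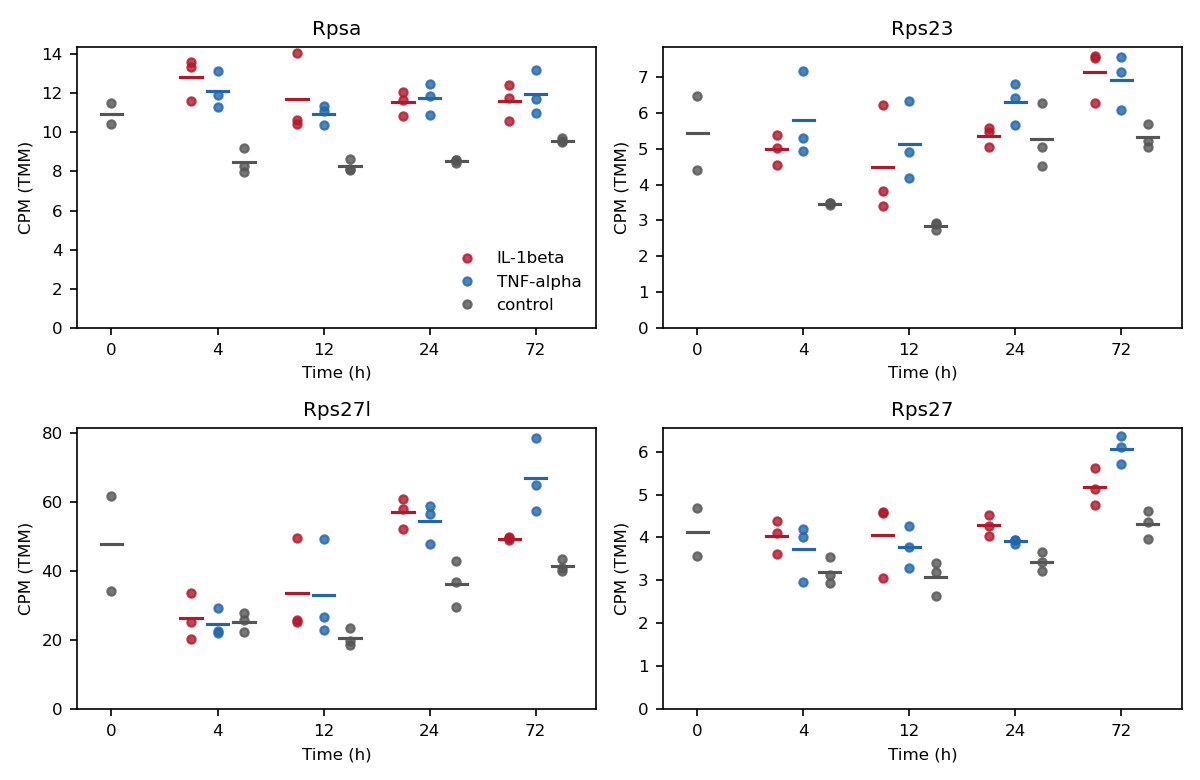
CPM of Rpsa, Rps23, Rps27l and Rps27 (vertical axes, from 0) in each library with IL-1beta, TNF-alpha or without cytokine (control) by time in hours (horizontal axes, evenly spaced times, 0 h for control alone); points are libraries and short bars the group means. From 4 h on the Rpsa libraries of both cytokines, at 10.37 to 14.05 CPM, lie above the controls, at 7.974 to 9.684 CPM. The Rpsa controls at 0 h, at 10.41 and 11.49 CPM, lie within the range of the cytokine libraries.

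The 12 members that rose with IL-1beta at 4 h all lay below the median level of the members, 39.3 CPM. None of the 41 members at or above that level was called, and 12 of the 40 below it rose. Rpl12, a protein of the stalk base, had 18.41, 15.29 and 19.51 CPM with IL-1beta against 11.88, 12.24 and 11.87 CPM in controls, a log2 fold change of 0.54 ± 0.0914 (adjusted p = 1.52e-05, edgeR). Rpl10a had 27.47, 22.17 and 26.02 CPM with IL-1beta against 18.07, 17.82 and 17.43 CPM in controls, at 0.49 ± 0.083 (adjusted p = 1.63e-05, edgeR). The groups did not overlap for either.

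Rpl5, the partner of the 5S ribosomal RNA, had 15.48, 12.18 and 12.46 CPM with IL-1beta at 4 h against 9.277, 9.839 and 9.211 CPM in controls, at 0.50 ± 0.116 (adjusted p = 0.00104, edgeR). Rpl11, which joins it in the same particle, was at 0.10 ± 0.134 and did not pass. Rps6, the substrate of the S6 kinases, had 7.972, 4.945 and 5.329 CPM with IL-1beta against 4.128, 3.535 and 3.925 CPM in controls, at 0.62 ± 0.171 (adjusted p = 0.0049, edgeR), lost without IL-1beta 4 h replicate a at 0.4087. Rpl21, Rps23, Rps13, Rpl10, Rpl9 and the ubiquitin fusion gene Rps27a also rose, by 0.32 to 0.53. In fits that left out 1 library 9 to 11 members were called, and 7 were called in all of them, among these Rpsa, Rpl12, Rpl10a, Rpl5, Rpl21 and Rps23. With the share of other short genes as a covariate 19 rose. Over the 81 members the log2 fold change with IL-1beta at 4 h had a Spearman correlation of -0.593 with the mean level, given as a description, since members share libraries and counting noise is larger at low level.

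At 12 h IL-1beta raised Rpsa, Rps23, Rps27l and Rpl12 (0.31 ± 0.101), of which Rpsa was called in every fit that left out 1 library. Without IL-1beta 12 h replicate a, the library high in Rps27l and Rps23, 1 member was called and the median fell to -0.0469. Without control 12 h replicate a 1 was called as well, and without IL-1beta 12 h replicate c or control 12 h replicate c 7. At 24 h IL-1beta raised Rpsa and Rps27l, and Rpsa alone was called without IL-1beta 24 h replicate a or control 24 h replicate b. The short-gene covariate gave 31 members at 12 h, all higher.

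At 72 h IL-1beta raised Rpl28, Rps16, Rps23, Rpsa and Rpl3 and lowered Rps27a. Rpl28 had 2.589, 2.357 and 1.929 CPM with IL-1beta against 1.369, 1.317 and 1.238 CPM in controls, a log2 fold change of 0.79 ± 0.211 (adjusted p = 0.00273, edgeR), and was the 1 member called in every fit that left out 1 library. Rps27a, which encodes ubiquitin joined to a ribosomal protein, fell to 3.252, 3.421 and 3.172 CPM with IL-1beta, against 4.255, 4.61 and 5.448 CPM in controls, at -0.53 ± 0.169 (adjusted p = 0.0114, edgeR), lost without control 72 h replicate c at -0.4548. Rps16 had 14.09, 18.26 and 16.16 CPM with IL-1beta against 10.56, 11.62 and 9.162 CPM in controls, at 0.63 ± 0.229 (adjusted p = 0.0275, edgeR). That call was lost without IL-1beta 72 h replicate b or c or control 72 h replicate a or c, at 0.5261 to 0.6331. It was also lost with DESeq2 at 0.62 and with the short-gene covariate at 0.3412.

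Without IL-1beta 72 h replicate a or b 3 members were called at 72 h, and without control 72 h replicate a or c 2. With the short-gene covariate 15 were called, of which 1 was higher. Summed chondrocyte markers were 16000 to 17600 CPM with IL-1beta at 72 h against 79500 to 99300 CPM in controls, fibroblast markers 19500 to 20200 against 11000 to 13000 CPM and leukocyte markers 32.3 to 38.1 against 26.2 to 30.4 CPM, and the part of the changed makeup of the tissue in these results was not tested.

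With TNF-alpha at 4 h Rpsa, Rps23 and Rpl21 (0.40 ± 0.13) rose. The Rpl21 call was lost in 5 of the fits that left out 1 library, without TNF-alpha 4 h replicate b or c or any of the controls, at 0.3364 to 0.4099, and with library totals at 0.3643 and no low-count filter at 0.3598. The short-gene covariate gave 22 members, all higher. The controls at 12 h lie on the same side of the parting between library sets. Against them Rpsa (0.55), Rps23 (1.03) and Rpl21 (0.58) were higher too, beside Rpl27 at 0.60 and Rps19bp1 at 0.42. In that comparison TNF-alpha and the time from 4 to 12 h cannot be told apart. In control tissue at 12 h against 4 h, which crosses the parting, the median member was at -0.236 and Rpl27 at -0.51. At 12 h TNF-alpha raised 8 members: Rps23, Rpl36a, Rpsa, Rps27l, Rps7, Rps20, Rpl19 and Rps16, by 0.40 to 0.86. Rpl36a had 3.132, 2.766 and 4.201 CPM with TNF-alpha against 1.912, 2.17 and 1.829 CPM in controls, at 0.78 ± 0.201 (adjusted p = 0.00306, edgeR), and was called in every fit that left out 1 library, as were Rps23 and Rpsa.

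For Rps7, Rps20, Rps16, Rps27l, Rps23 and Rpl36a of this list TNF-alpha 12 h replicate c was the highest of the TNF-alpha libraries. For Rpsa it lay between the others, and for Rpl19 it was the lowest. For Rps7 it had 123.2 CPM against 55.62 and 44.59 CPM in the other TNF-alpha libraries, and for Rps25, which was not called, 92.14 CPM against 38.56 and 27.25 CPM. Without it 3 members were called, and without TNF-alpha 12 h replicate b, the lowest library, 20. Leaving out control 12 h replicate a or b also gave 3. The short-gene covariate gave 27, all higher.

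At 24 h TNF-alpha raised Rpsa, Rps27l, Rpl3 (0.20 ± 0.0725) and Rpl10a (0.24 ± 0.0871), and Rpsa was called in every fit that left out 1 library. Without TNF-alpha 24 h replicate b 2 were called, without TNF-alpha 24 h replicate c or control 24 h replicate a or b 1, and without control 24 h replicate c 7. The short-gene covariate gave 7, of which 6 were higher.

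At 72 h TNF-alpha raised 12 members. Rpl3, which reaches to the peptidyl transferase centre, had 74.87, 69.85 and 69.16 CPM with TNF-alpha against 59.76, 56.44 and 62.28 CPM in controls, at 0.26 ± 0.0717 (adjusted p = 0.00397, edgeR). Rps27 had 6.364, 6.114 and 5.708 CPM with TNF-alpha against 4.353, 4.61 and 3.962 CPM in controls, at 0.49 ± 0.135 (adjusted p = 0.00432, edgeR). Neither overlapped the controls, and these 2 were called in every fit that left out 1 library. Rpl4 had 997.6, 916 and 939.2 CPM with TNF-alpha against 817.6, 860.4 and 788.3 CPM in controls, at 0.21 ± 0.0726 (adjusted p = 0.0219, edgeR). The other 9, at 0.27 to 0.69, include Rps27l, Rpl28 (0.56 ± 0.208), Rpl21, Rpl5, Rpsa, Rpl10a, Rpl10 and Rpl12.

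The count at 72 h was 6 without TNF-alpha 72 h replicate a, 7 without TNF-alpha 72 h replicate b or control 72 h replicate a, and 4 without control 72 h replicate c. The short-gene covariate gave 37, all higher. Summed chondrocyte markers were 37800 to 45800 CPM with TNF-alpha at 72 h against 79500 to 99300 CPM in controls, fibroblast markers 6440 to 7180 against 11000 to 13000 CPM and leukocyte markers 53.5 to 77 against 26.2 to 30.4 CPM, and their part was not tested.

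Over the 8 cytokine comparisons 59 members were called in none, 9 in 1, 6 in 2, 4 in 3 (Rpl10a, Rpl12, Rpl21 and Rpl3), 2 in 5 and Rpsa in all. Rps3, the most abundant member, and Rplp0 were among the 59. So were Rps19, at log2 fold changes of 0.10 ± 0.205 with IL-1beta at 4 h and 0.34 ± 0.202 with TNF-alpha at 72 h, and the pairs Rpl22 with Rpl22l1 and Rpl7 with Rpl7l1.

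The 2 cytokines differed from each other in few members. IL-1beta was above TNF-alpha at 4 h for Rpl12 (0.47 ± 0.0984, adjusted p = 0.00102, edgeR) and Rpl10a (0.29 ± 0.0875), against 5.71% of all genes higher, 6.66% lower and 12.4% called in either direction, and Rpl12 was called in every fit that left out 1 library while Rpl10a was not. At 12 h edgeR called no member (5 at an unadjusted p under 0.05, and 3 called without TNF-alpha 12 h replicate b), against 10.6% of genes, 4.7% higher and 5.88% lower. At 24 h Rpl15 was lower with IL-1beta (-0.16 ± 0.0577), against 9.31% of genes higher, 10.8% lower and 20.1% in either direction, and its call was lost in 4 fits that left out 1 library, at -0.1496 to -0.1401.

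At 72 h Rpl4 and Rpl10 were lower with IL-1beta, against 19.4% of genes higher, 20.4% lower and 39.8% in either direction. Rpl4 had 754, 737.8 and 767.1 CPM with IL-1beta against 997.6, 916 and 939.2 CPM with TNF-alpha, at -0.34 ± 0.0726 (adjusted p = 0.000272, edgeR), and kept its call in every fit that left out 1 library. Rpl10, the protein that completes the large subunit in the cytoplasm, had 15.42, 15.53 and 14.57 CPM with IL-1beta against 19.56, 18.94 and 18.54 CPM with TNF-alpha, at -0.33 ± 0.112 (adjusted p = 0.0186, edgeR). It lost the call without IL-1beta 72 h replicate c, at -0.2957, or TNF-alpha 72 h replicate a, at -0.3067. With the short-gene covariate 43 members were called at 72 h, all lower with IL-1beta.

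The IL-1beta effect differed between the 4 times for 5 members, Rps27a, Rpl12, Rpl28, Rpl5 and Rpl10a, against 38.7% of all genes. For TNF-alpha edgeR called none (3 at an unadjusted p under 0.05), against 19.2%, in a test that crosses the parting between library sets at 4 h.

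Genes that build ribosomes were called more often with the cytokines than the ribosomal protein genes were, by count and with no test of the difference. The lists of other genes below were chosen from general knowledge with earlier results of these data known. With IL-1beta at 4 h 38 of 50 genes of ribosome biogenesis rose and none fell, 76% against 15.5% of all genes, with a median log2 fold change of 0.37. Heatr1, a factor of small-subunit processing, had a mean of 74.51 CPM with IL-1beta against 44.86 CPM in controls, at 0.73 ± 0.0614 (adjusted p = 1.11e-11, edgeR), and Wdr43 was at 0.58 ± 0.0554 and the helicase Ddx21 at 0.58 ± 0.0589. At 12, 24 and 72 h 18, 17 and 11 rose and 1, none and 4 fell. These are 36%, 34% and 22% higher, against 14.5%, 17% and 19.3% of all genes, so the 72 h share lies near the background. The shares lower were 2%, 0% and 8%, against 15%, 15.6% and 19.7%. With TNF-alpha 19, 31, 19 and 27 rose at 4, 12, 24 and 72 h and none fell. These are 38%, 62%, 38% and 54% higher, against 10.9%, 14.6%, 13.2% and 17.8% of all genes. Heatr1 was at 0.83 ± 0.0647 at 12 h and at 0.75 ± 0.0639 at 72 h with TNF-alpha. Between the cytokines 16 were higher with IL-1beta at 4 h and none lower, and 25 were lower and 1 higher with IL-1beta at 72 h. These are 32% higher at 4 h, against 5.71% of all genes, and 50% lower at 72 h, against 20.4%.

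In control tissue 4 of the 50 biogenesis genes were higher and 16 lower at 72 h than at 12 h. These are 8% and 32%, against 18.7% of all genes called higher, 18.3% lower and 37.1% in either direction. Npm1, a nucleolar chaperone, rose by 0.71 ± 0.09, while Rrs1, a factor of large-subunit assembly, had a mean of 20.54 CPM at 72 h against 32.06 CPM at 12 h, at -0.64 ± 0.0818 (adjusted p = 1.34e-07, edgeR). Of the regulators 1 of 17 rose and 7 fell, 5.88% and 41.2% against the same backgrounds. Myc, a transcription factor that drives ribosome production, had a mean of 1.7 CPM at 72 h against 3.943 CPM at 12 h, at -1.22 ± 0.219 (adjusted p = 3.8e-05, edgeR), and Larp1 was at -0.59 ± 0.101.

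Other genes of translation rose in part. Of 35 initiation and elongation genes 14 rose and 9 fell from 12 to 72 h in controls, with Eif4a2 at 0.79 ± 0.076 and Eif4g1 at -0.39 ± 0.063. These are 40% higher and 25.7% lower, against 18.7% and 18.3% of all genes. With TNF-alpha at 72 h 20 rose and 3 fell, 57.1% higher against 17.8% of all genes, and those that rose include Eif3c (0.47 ± 0.0493), the poly(A)-binding Pabpc1 (0.62 ± 0.0762) and the elongation factor Eef2 (0.37 ± 0.0618). With IL-1beta 12, 8, 9 and 5 rose at the 4 times and 1, none, none and 1 fell. These are 34.3%, 22.9%, 25.7% and 14.3% higher, against 15.5%, 14.5%, 17% and 19.3% of all genes.

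Host genes of small nucleolar RNAs, whose transcripts also begin with pyrimidines, changed in control tissue too. At 4 h 8 of 10 were lower than at 0 h and none higher (median log2 fold change -0.68), and at 72 h 7 were higher than at 12 h and none lower (0.68), with Gas5 at 0.84 ± 0.167. These are 80% lower at 4 h, against 10.2% of all genes, and 70% higher at 72 h, against 18.7%. Fau and Rack1, which encode ribosomal proteins under names outside the rule, both rose from 12 to 72 h, by 0.99 and 0.38, and neither was called in the 8 cytokine comparisons. Of 77 mitochondrial ribosomal protein genes 38 rose and 1 fell from 12 to 72 h, 49.4% higher against 18.7% of all genes, at a median of 0.31. With IL-1beta none, 2, 17 and 11 of these rose and 7, 2, none and none fell at 4, 12, 24 and 72 h, and with TNF-alpha none, 12, 14 and 17 rose and 15, 1, none and 1 fell. The shares higher at 12, 24 and 72 h were 2.6%, 22.1% and 14.3% with IL-1beta against 14.5%, 17% and 19.3% of all genes, and 15.6%, 18.2% and 22.1% with TNF-alpha against 14.6%, 13.2% and 17.8%. The shares lower at 4 h were 9.09% with IL-1beta against 17.2% of all genes, and 19.5% with TNF-alpha against 10.6%.

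**Figure D5:**
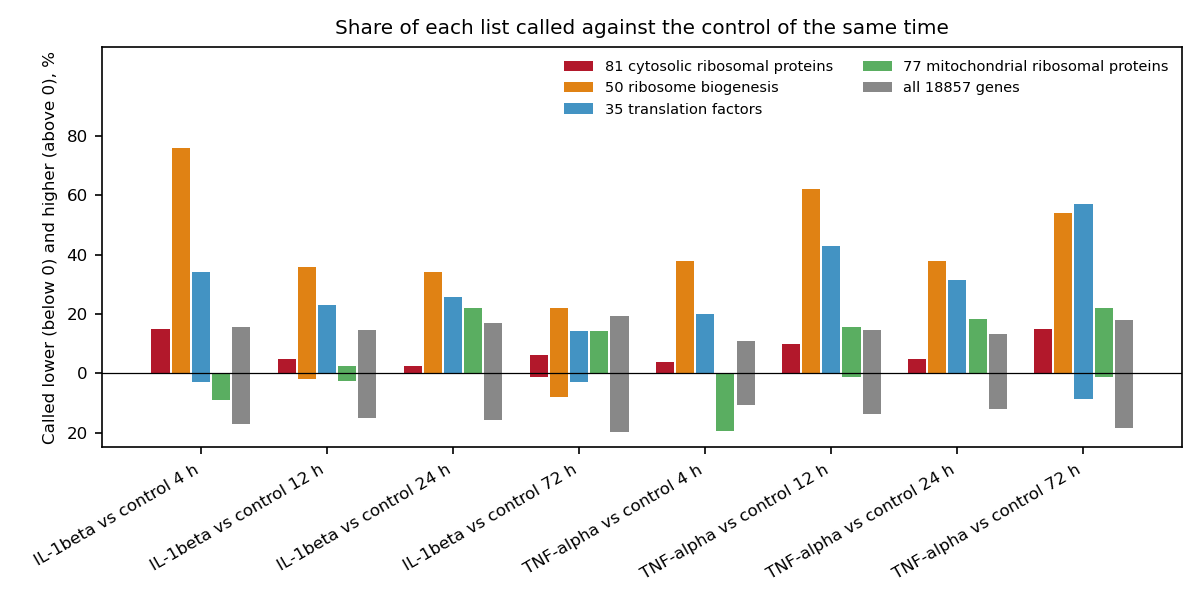
Percent of the genes of each list called higher (bars above 0) or lower (bars below 0) with IL-1beta or TNF-alpha against the control of the same time, for the 81 ribosomal protein genes, 50 genes of ribosome biogenesis, 35 of translation, 77 mitochondrial ribosomal proteins and all 18857 tested genes. With IL-1beta at 4 h 38 of 50 biogenesis genes are called higher, against 12 of 81 ribosomal protein genes.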

How the data were processed

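The authors deposited a table of mRNA counts per gene, which are whole numbers and not normalised. Its last 2199 lines name no gene and hold 15490 counts in a single field, 6.57% of these and the left-out column together, and stay out of totals and tests. Per the submitters' processing notes, Trimmomatic, cutadapt, STAR, featureCounts and the build mm10 were used, with no version and no order of steps. The annotation version and strand setting stay unknown from the sources at hand. Per the labels' protocols, total RNA was isolated with a Norgen kit and depleted with Ribo-Zero Gold. The labels do not say that replicates came from separate cultures, so p-values may measure only the spread between libraries.

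Testing was by edgeR 4.0.16 on R 4.3.3 with limma 3.58.1, using its quasi-likelihood F test, TMM factors (0.864 to 1.12) and filterByExpr by group, in 1 fit of 38 libraries with a coefficient for each of 13 groups. The common biological coefficient of variation was 8.26%. Genes with a Benjamini-Hochberg adjusted p under 0.05 over all 18857 genes were called. Standard errors are the absolute log2 fold change over the root of F. CPM are scaled by TMM, and no prior count enters the CPM. The depth of 11163263 to 68655350 counts per library leaves members near 1 CPM with few reads. Libraries of a group differed by more than sampling noise, with a chi-square over its degrees of freedom of 3.39 or more in 37 pairs.

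The members and lists were chosen with earlier results of these data known. Named in each comparison and direction were up to 3 called members of largest change, and members with a known role outside the ribosome, paralogs and stalk proteins. The others were named after their values were seen. From each list up to 3 genes of smallest p were named, besides some chosen for what is known of them.

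On counts simulated for control at 72 h against 12 h (18156 genes), 7.69% of genes changed 1.2-fold, 52.3% changed 1.5-fold and 84.6% changed 2-fold were called, and 4 of 17961 unchanged genes. The alternatives were DESeq2 1.42.0 (Wald test), its size factors in edgeR, library totals, a block for the replicate letter, no filter on low counts, the libraries compared alone, all 39 libraries, pseudogene rows added, the 12 h controls in place of the 4 h ones, the members' share without the 20 most abundant genes, and leaving out each library. The short-gene covariate was added after the data were seen. Tables were made with pandas 2.3.3 and NumPy 2.4.6 in Python 3.11.15, and figures with matplotlib 3.10.9. Promoters come from RefSeq's GRCm38.p6 table. The small RNA libraries were not used here. Results of some genes are not reported here.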

Additional observations from a re-analysis of the deposited data

Results flagged for a closer look

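For 5 members the effect of IL-1beta differed between 4, 12, 24 and 72 h by the interaction of treatment and time in edgeR, adjusted over all genes. Rps27a, the ubiquitin fusion gene, was at a log2 fold change of 0.42 at 4 h and -0.53 at 72 h (adjusted p = 0.0058, edgeR). Rpl12 was at 0.54 at 4 h and 0.31 at 12 h (adjusted p = 0.00765, edgeR). Rpl28 had its largest estimate, 0.79, at 72 h (adjusted p = 0.022, edgeR). Rpl5 was at 0.50 at 4 h, 0.11 at 12 h, -0.11 at 24 h and 0.13 at 72 h (adjusted p = 0.028, edgeR). Rpl10a was at 0.49 at 4 h (adjusted p = 0.0288, edgeR). The share of all genes called in this test was 38.7%. The count of members depends on the fit: it was 35 with the short-gene covariate and 16 without the low-count filter.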

How the results depend on the processing

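The replicate letters did not pair libraries (correlations of deviations -0.106 to 0.096 over 49 pairs). With the letter as a replicate block the counts were within 1.5 times of those given, such as 12 with IL-1beta at 4 h, 29 for control 4 h against 0 h and 50 for control 72 h against 12 h, and this held for DESeq2, for median-of-ratios factors and, except IL-1beta at 72 h with 3, for added pseudogene rows. Where a count of members moved more, the cause was not tested. With all 39 libraries it was 7 and 1 for IL-1beta at 4 and 72 h, 3, 1 and 2 for TNF-alpha at 12, 24 and 72 h, 1, 0 and 1 for IL-1beta against TNF-alpha at 4, 24 and 72 h, 15, 10, 30, 0 and 14 for control 4 h against 0 h, 24 h against 12 h, 72 h against 12 h, 12 h against 4 h and 72 h against 0 h, and 1 for IL-1beta by time. With the short-gene covariate it was 19, 31 and 15 for IL-1beta at 4, 12 and 72 h, 22, 27, 7 and 37 for TNF-alpha at 4, 12, 24 and 72 h, 9, 8 and 43 between the cytokines at 4, 24 and 72 h, 25, 0 and 42 for control 72 h against 12 h, 12 h against 4 h and 72 h against 0 h, and 35 and 4 for IL-1beta and TNF-alpha by time. Without the low-count filter it was 9, 13 and 14 for IL-1beta at 12, 24 and 72 h, 20, 29, 39 and 20 for TNF-alpha at 4, 12, 24 and 72 h, 12, 12, 2 and 8 between the cytokines, 39 and 35 for control 12 h against 4 h and 72 h against 0 h, and 16 and 37 by time. With the compared libraries alone it was 5 and 24 for IL-1beta at 24 and 72 h, 11, 4, 13 and 23 for TNF-alpha, 1 and 6 between the cytokines at 4 and 72 h and 13 for control 12 h against 4 h. With library totals it was 1 for TNF-alpha at 24 h, 1, 0 and 7 between the cytokines at 4, 24 and 72 h, 0 for control 12 h against 4 h, and 2 and 1 by time, and the median of all genes moved to -0.134 with IL-1beta at 4 h, 0.101 with TNF-alpha at 72 h, -0.106 between the cytokines at 72 h and 0.136 for control 24 h against 12 h. With the 12 h controls TNF-alpha at 4 h gave 5. The members' share of counts, 0.76% on average, was 0.992% without the 20 most abundant genes. Leaving out 1 library gave 9 to 11, 1 to 7, 1 to 3 and 2 to 5 members for IL-1beta, 2 to 3, 3 to 20, 1 to 7 and 4 to 12 for TNF-alpha, 1 to 3, 0 to 3, 0 to 1 and 2 to 3 between the cytokines, 5 to 33, 15 to 36, 41 to 59, 0 to 5 and 13 to 22 for the control comparisons in the order above, and 3 to 6 and 0 to 3 by time. The estimates that changed sign did so with the short-gene covariate: Rps3 to -0.1399, Rpl39 to -0.2804 and Rplp1 to -0.2457 with IL-1beta at 72 h, Rps19 to 0.3014, Rps27l to 0.4354, Rpl13a to 0.2639 and Rplp0 to 0.2004 with TNF-alpha at 4 h, and Rpl10 to -0.01307, Rplp1 to -0.1063 and Rplp2 to -0.3886 for control 72 h against 12 h. For single members 6326 values kept call and direction, 279 lost the call and 179 gained it. Members near 1 CPM are limited by depth.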
